A study of Mus musculus with 6 samples.

Results

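Strc, Stard13 and Saa3 are 3 of the 56884 genes in the count table of a mouse model of mantle cell lymphoma, Eµ-SOX11CCND1. They were picked for their own counts: each had 0 or 1 counts over all 3 libraries of wild-type (WT) splenic B cells and many counts over the spleens of passage-1 (P1) recipients. The difference between the groups in these genes is therefore a description and carries no test. Each of the 3 had more than 100 counts in every P1 library, and all 3 passed the filter on low counts. Of the 31956 genes with 0 or 1 counts over the WT libraries, 5225 had at least 1 count in P1.

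The P1 group was 3 whole spleens, replicates 3, 4 and 5, from mice of the first passage of an adoptive transfer of the Eµ-SOX11CCND1 model. In the name of the model, Eµ is the immunoglobulin heavy chain enhancer, which is active in B cells, and SOX11 and CCND1 are the genes of human mantle cell lymphoma. The WT group was 3 samples of B cells selected from spleen, called WT A, B and C, and the column names give the strain as BL6. The labels used here give neither age, sex or other treatment, nor the genotype of the recipients. Cell selection, genotype and the presence of tumour all differ between the groups and cannot be told apart. In whole spleens, fewer cells of a type and less RNA per cell cannot be told apart either.

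The proteins of the 3 genes have little in common. Strc encodes stereocilin, an extracellular protein of the hair bundle of cochlear outer hair cells, where it links stereocilia to each other and to the tectorial membrane, and its loss causes deafness in mouse and human. Stard13, also called Dlc2, encodes a GTPase-activating protein with a START lipid-binding domain, studied as a tumour suppressor in human liver cancer. Saa3 encodes serum amyloid A3, an acute-phase protein made in the mouse mainly outside the liver, by macrophages, fat cells and epithelia. Interleukin-1, tumour necrosis factor and lipopolysaccharide induce it through NF-kappaB and C/EBP factors. None of the 3 is used as a B cell marker.

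The genes lie on different chromosomes, all on the minus strand in GRCm39. Strc (ENSMUSG00000033498) runs from 121194209 to 121217649 on chromosome 2, with an exon length of 6229 bases in the table. Stard13 (ENSMUSG00000016128) runs from 150960975 to 151157301 on chromosome 5, with 8594 bases. Saa3 (ENSMUSG00000040026) runs from 46361422 to 46365124 on chromosome 7, with 2606 bases. RefSeq promoter windows were found for all 3, from 250 bases before to 50 after the start, and are given in the older build GRCm38.p6, on the gene's strand: chr2:121380891-121381190 for Strc, chr5:151190144-151190443 for Stard13 and chr7:46715627-46715926 for Saa3. They are shown so that the stretch before each start can be compared, since the genes were at or near 0 in one group and read in all libraries of the other. Capitals mark 2 stretches of Saa3. The earlier one matches GGNNTTTCC, a form of the NF-kappaB site, and the later one TTGCNNAA, a form of the C/EBP site, both on the opposite strand.
Strc: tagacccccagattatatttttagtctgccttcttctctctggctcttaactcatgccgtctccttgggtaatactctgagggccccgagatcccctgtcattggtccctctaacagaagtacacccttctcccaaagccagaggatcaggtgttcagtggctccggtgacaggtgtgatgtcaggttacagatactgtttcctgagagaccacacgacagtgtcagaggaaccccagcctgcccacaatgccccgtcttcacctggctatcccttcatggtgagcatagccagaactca
Stard13: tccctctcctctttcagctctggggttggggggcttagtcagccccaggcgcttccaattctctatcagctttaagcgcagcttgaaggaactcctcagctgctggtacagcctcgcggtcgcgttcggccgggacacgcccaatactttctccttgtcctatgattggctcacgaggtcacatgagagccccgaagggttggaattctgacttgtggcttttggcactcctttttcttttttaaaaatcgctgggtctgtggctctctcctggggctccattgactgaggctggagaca
Saa3: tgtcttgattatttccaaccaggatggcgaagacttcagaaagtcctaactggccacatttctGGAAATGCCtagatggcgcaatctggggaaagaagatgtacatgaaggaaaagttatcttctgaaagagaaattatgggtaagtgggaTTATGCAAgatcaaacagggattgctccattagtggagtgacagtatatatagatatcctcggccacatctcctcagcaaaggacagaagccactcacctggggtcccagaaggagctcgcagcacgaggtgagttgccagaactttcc

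The capitals of Saa3 stand at -187 to -179 and -99 to -92 from the start. The windows were searched on both strands for 6 short motifs, which do not overlap in the matches found: the SOX forms ACAAAG and AACAAT, GGNNTTTCC, TTGCNNAA, the TATA form TATAAA and the E box CACGTG. Saa3 held 1 match each of GGNNTTTCC and TTGCNNAA. Strc and Stard13 held 0 matches of the 6. Among 32851 RefSeq windows of the same length, 5.82% held GGNNTTTCC and 10.8% TTGCNNAA, 18.7% and 10.7% held the SOX forms, 13.6% TATAAA and 7.15% CACGTG. GC content was 52.3% for Strc, 54.7% for Stard13 and 46% for Saa3, against a median of 52.7% over all windows. A gene can start elsewhere too. The bases just after the start lay near the beginning of 1 of 5 annotated Strc transcripts, 3 of 10 of Stard13 and 2 of 3 of Saa3. This does not place the exact start of those transcripts. The match is a description of letters, and no binding was measured.

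Library totals were 7510327 to 10363396 counts in P1 and 12196413 to 14266132 in WT. P1 replicate 4 stood apart by a mitochondrial share of 17.4% of counts, against 3.4% and 0.0854% in P1 replicates 3 and 5 and 0.569% to 1.14% in WT, and by a TMM scaling factor of 0.578 against 1.09 to 1.18 in the other 5 libraries. P1 replicate 3 stood apart by transcripts of pancreatic acinar cells: 20 such genes, listed after the data were seen, summed to 1495 normalised CPM (read counts scaled to library size) there, against 19 and 5.22 CPM in P1 replicates 4 and 5 and 5.2 to 6.65 CPM in WT. All 20 were highest in P1 replicate 3. Of 15462 genes tested between the groups, 27.9% were called (16.9% higher and 11% lower in P1; edgeR quasi-likelihood test, Benjamini-Hochberg, adjusted p under 0.05). P-values measure the spread between these libraries, since the labels do not say whether the recipients received cells of separate tumours.

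Saa3 was by far the most counted of the 3 genes. It had 1597, 745 and 2245 counts in P1 replicates 3, 4 and 5, against 0, 0 and 1 in WT A, B and C. On the CPM scale, normalised to TMM-adjusted totals, these were 137, 172 and 260 CPM in P1 (95% exact Poisson intervals 131 to 144, 160 to 185 and 249.8 to 271) and 0, 0 and 0.0756 CPM in WT. The P1 spleens all stood far above the WT samples and spread 1.9-fold among themselves. The ratio of P1 to WT was 8458, and with a single count in WT its 95% counting interval ran from 1517 to 334133, so its size is poorly known.

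Strc had 338, 129 and 791 counts in P1 replicates 3, 4 and 5, against 0 counts in each WT library. Its levels were 29.1, 29.9 and 91.8 CPM in P1, with intervals of 26.1 to 32.3, 24.9 to 35.5 and 85.5 to 98.4 CPM, so replicate 5 stood 3.16-fold over the lowest while replicates 3 and 4 overlapped within counting error. With counts pooled over each group and a floor of 3 counts over WT, the ratio of P1 to WT was 773 for Strc. It weights replicate 5 most and is not a lower limit for each spleen.

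Stard13 was the lowest of the 3 and the most even. It had 304, 180 and 290 counts in P1 replicates 3, 4 and 5, against 0 in each WT library, and levels of 26.1, 41.7 and 33.6 CPM in P1. The highest P1 spleen was 1.59-fold over the lowest, and the intervals (23.3 to 29.3, 35.8 to 48.2 and 29.9 to 37.7 CPM) set replicate 3 apart from both others. Against the same floor, its ratio of pooled counts was 476, which is not a lower limit for each spleen either. The intervals cover counting error alone. In a single library, 0 counts have exact 95% upper limits of 0.224, 0.237 and 0.279 CPM in WT A, B and C, so lower levels of Strc and Stard13 were not detectable at this depth.

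Over the 3 P1 spleens the mean levels were 190.0 ± 63.4 CPM for Saa3, 50.2 ± 36 CPM for Strc and 33.8 ± 7.76 CPM for Stard13 (SD, n = 3). The coefficients of variation were 33.4%, 71.6% and 22.9% in that order. Which P1 spleen was lowest depended on the scaling, because the TMM factor of replicate 4 was small. As CPM of plain library totals, Saa3 had 154, 99.2 and 282 in P1 replicates 3, 4 and 5, Strc 32.6, 17.2 and 99.3, and Stard13 29.3, 24 and 36.4, which put replicate 4 lowest for all 3 genes and widened the spread of Strc to 5.78-fold. TMM scaling put replicate 3 lowest for all 3 and replicate 4 highest for Stard13. Under both, replicate 5 was highest for Saa3 and Strc, and Stard13 varied least. The mean of Strc leaned on replicate 5 and was 29.5 CPM without it.

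**Figure D1:**
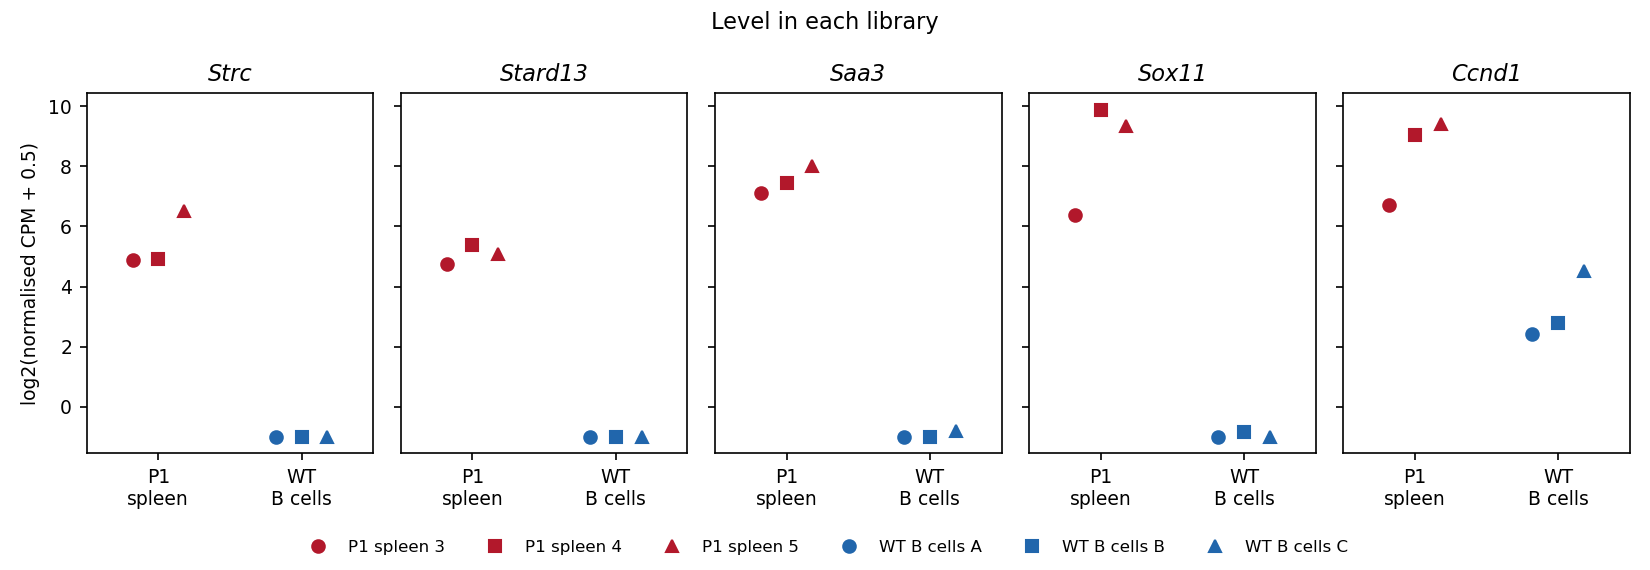
Log2(normalised CPM + 0.5) of Strc, Stard13, Saa3 and the driver genes Sox11 and Ccnd1, P1 spleens left of WT B cells, with 1 point for each library. Saa3 lies between 137 and 260 CPM in P1, while the WT libraries of Strc and Stard13 hold 0 counts.

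Levels of different genes can be set side by side only per length. Per kilobase, Saa3 had 52.7, 66.2 and 99.9 CPM in P1 replicates 3, 4 and 5, which placed it above 95.7%, 95.9% and 97.8% of the tested genes of each library. Strc had 4.67, 4.79 and 14.7 CPM per kilobase, above 51.7%, 55.1% and 79.6% of tested genes. Stard13 had 3.04, 4.85 and 3.91 CPM per kilobase, above 40.6%, 55.4% and 49.8%. Saa3 was thus among the more abundant transcripts of these spleens, and Strc and Stard13 lay near the middle of the tested genes, apart from Strc in replicate 5. The order of Saa3 above the other 2 was the same in all 3 P1 spleens. Strc and Stard13 changed places: Strc per kilobase was 153%, 98.9% and 376% of Stard13 in P1 replicates 3, 4 and 5, and in replicate 4 their intervals cover the difference.

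The driver genes of the model also varied between the recipients. Sox11, the neural transcription factor that marks most human mantle cell lymphomas, had 9.89, 113 and 77.9 CPM per kilobase in P1 replicates 3, 4 and 5. Ccnd1, which encodes cyclin D1, had 22.4, 111 and 144 CPM per kilobase. Both were lowest in replicate 3, with 11.4-fold and 6.43-fold spreads in CPM on the TMM scale, against 1.59-fold to 3.16-fold for Stard13, Saa3 and Strc. With plain library totals the spreads were 7.6-fold for Sox11 and 6.2-fold for Ccnd1, against 5.78-fold for Strc, 2.84-fold for Saa3 and 1.52-fold for Stard13. The coefficient of variation of Strc was 71.6% with TMM and 87.8% with library totals. That of Ccnd1 was 68% and 82.2%, and that of Sox11 78.4% and 70.9%, so Strc was not steadier than Ccnd1 on either scale. The species of the transgene sequences is not given in the sources used here, so the drivers' counts may hold only part of their reads.

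Ratios within a library do not depend on the scaling. Per kilobase they do depend on the exon lengths of the table, and another length would move every ratio to a driver. Saa3 per kilobase was 533%, 58.4% and 128% of Sox11 in P1 replicates 3, 4 and 5, and 236%, 59.7% and 69.5% of Ccnd1. It exceeded both drivers in replicate 3, neither in replicate 4 and Sox11 alone in replicate 5. Strc was 47.2%, 4.23% and 18.9% of Sox11 and 20.9%, 4.32% and 10.3% of Ccnd1. Stard13 was 30.8%, 4.28% and 5.02% of Sox11 and 13.6%, 4.37% and 2.72% of Ccnd1. All 3 genes were highest relative to Sox11 in replicate 3, the spleen with the least Sox11. Relative to Saa3, Strc held 8.86%, 7.24% and 14.7% and Stard13 5.77%, 7.33% and 3.92% per kilobase, which is a narrower range than relative to Sox11.

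Among genes with 0 or 1 WT counts, ordered by their P1 total, Saa3 came 3rd with 4587 counts, Strc 5th with 1258 and Stard13 7th with 774. Sox11 headed the order with 10606 counts. Next to Saa3 stood Apol11a, an apolipoprotein L gene, with 4737 counts above it, and Itgb2l, an integrin beta chain gene of neutrophils, with 1825 below it. The neighbours of Stard13 were 2210010C04Rik with 859 counts, all of them in P1 replicate 3, and Cebpe, a transcription factor gene of granulocyte maturation, with 738. Cebpe was followed by Pnliprp1, a pancreatic lipase-related gene with 729 counts, all in P1 replicate 3 as well, and Mgam with 581.

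At a line of 300 P1 counts, 22 genes stood inside, the last of them Gzmk with 314. Of the 22, 15 passed the filter on low counts. Strc, Stard13 and Saa3 were among 6 of the 22 that had at least 100 counts in every P1 library, together with Sox11, Apol11a and Itgb2l. The 3 genes were picked for such counts, and both lines were drawn after the values were seen, so these places are a description. By coefficient of variation over the P1 spleens, Stard13 was the most even of the 22 and Saa3 the second, while Strc came 7th (9th with plain library totals). Of the 22, 13 were highest in P1 replicate 3, 5 in replicate 4 and 4 in replicate 5, on the TMM scale. Saa3 and Strc belonged to the 4 highest in replicate 5, and Stard13 to the 5 highest in replicate 4.

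**Figure D2:**
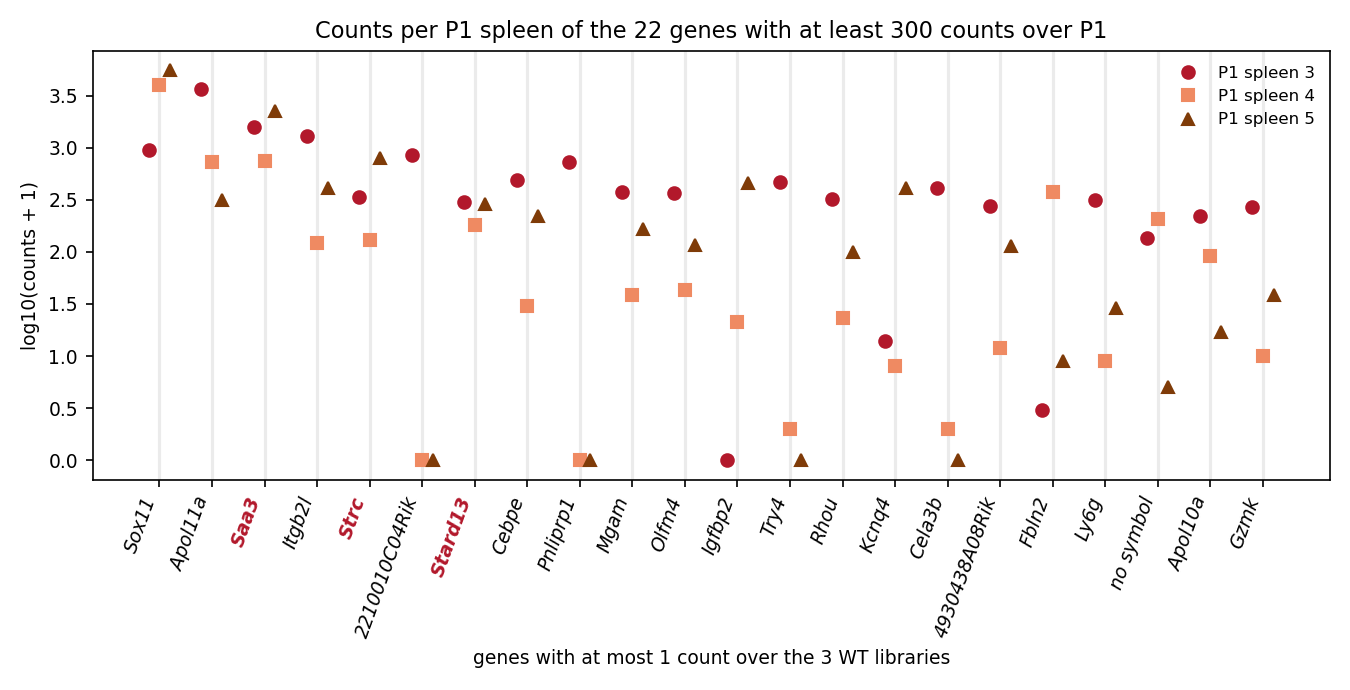
Counts in P1 replicates 3, 4 and 5 (log axis) of the 22 genes with 0 or 1 counts over WT and at least 300 counts over P1, in order of their P1 total. Strc, Stard13 and Saa3, which were picked for their counts, are among the 6 with at least 100 counts in each P1 library. Genes such as 2210010C04Rik and Pnliprp1 were counted, among the P1 spleens, in replicate 3 alone.

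Markers of cells other than B cells were far higher in P1: of 79 tested markers (96 listed), 47 were higher and 1 lower, with a median log2 difference of 3.7, against 16.9% and 11% of all tested genes and a median of 0.02 (edgeR quasi-likelihood test, adjusted p under 0.05, n = 3 per group). Neutrophil markers, 12 of 12 higher, summed to 995.5 to 7485 CPM in P1 and 2.5 to 9.07 CPM in WT. Macrophage and monocyte markers, 4 of 13 higher and 0 lower, summed to 618 to 2890 CPM in P1 and 219.9 to 542 CPM in WT. Red cell precursor markers, 12 of 12 higher, summed to 6884 to 224899 CPM in P1 and 56.8 to 86.9 CPM in WT. T cell markers, 10 of 10 higher, summed to 248 to 649.5 CPM in P1 and 41.7 to 53.9 CPM in WT. The 16 pan-B cell genes went the other way, with 15 lower, 0 higher and sums of 1329 to 3681 CPM in P1 against 11044 to 11733 CPM in WT.

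Other lists held fewer called members or overlapping sums. NK cell markers had 3 of 7 tested members higher (50.2 to 206 CPM in P1, 13.4 to 28.5 CPM in WT) and dendritic cell markers 1 of 7 (41.4 to 138 CPM in P1, 21 to 53.9 CPM in WT). Stromal and endothelial markers had 5 higher and 1 lower of 8 tested, with overlapping sums of 108 to 397 CPM in P1 and 272 to 337 CPM in WT. Megakaryocyte markers, 0 of 8 called (0 also at an unadjusted p under 0.05 and by DESeq2), summed to 21.8 to 71 CPM in P1 and 12.1 to 59.3 CPM in WT, and of the mast cell, basophil and eosinophil markers 0 of 2 tested were called by edgeR and 1 at an unadjusted p under 0.05 and by DESeq2 (4.06 to 43.4 CPM in P1, 5.51 to 7.79 CPM in WT). Of the hepatocyte markers, Alb, Ahsg and Serpina1a had 0 counts in all 6 libraries, and the list summed to at most 1.39 CPM in P1 and 0.0606 CPM in WT.

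The spleen with the highest neutrophil and macrophage markers was not the one with the highest Saa3. Given as log2 of the level over the geometric mean of the 3 P1 spleens on the TMM scale, Saa3 stood at -0.42, -0.09 and 0.51 in P1 replicates 3, 4 and 5. The neutrophil sum stood at 1.48, -1.43 and -0.05, and the macrophage sum at 1.34, -0.89 and -0.45. Both sums were highest in replicate 3, where Saa3 was lowest on this scale. Saa3 was 1.84%, 17.3% and 10.1% of the neutrophil sum in P1 replicates 3, 4 and 5, and 4.75%, 27.9% and 31.1% of the macrophage sum. These ratios, which no scaling moves, were lowest in replicate 3 for both. Relative to the pan-B sum, Saa3 was at 7.08%, 13% and 7.08%.

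Strc stood at -0.57, -0.53 and 1.09 on the same log2 scale in P1 replicates 3, 4 and 5, and Stard13 at -0.35, 0.33 and 0.02. The pan-B sum stood at -0.13, -0.67 and 0.8, with its highest value in replicate 5 like Strc and Saa3. Red cell markers stood at -0.06, 2.54 and -2.49, T cell markers at 0.85, -0.53 and -0.32, NK cell markers at 0.97, -1.06 and 0.09, dendritic cell markers at 0.96, -0.18 and -0.78, and stromal markers at -0.12, 1 and -0.87. With plain library totals, replicate 3 was still the highest for the neutrophil, macrophage, T, NK and dendritic cell sums, and replicate 5 for Strc, Stard13, Saa3 and the pan-B sum. On that scale replicate 4 was the lowest for all 3 genes and also for the neutrophil, macrophage, T, NK, dendritic cell and pan-B sums. Over 3 spleens no correlation was computed, and the part of any cell type in the levels of the 3 genes was not tested.

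**Figure D3:**
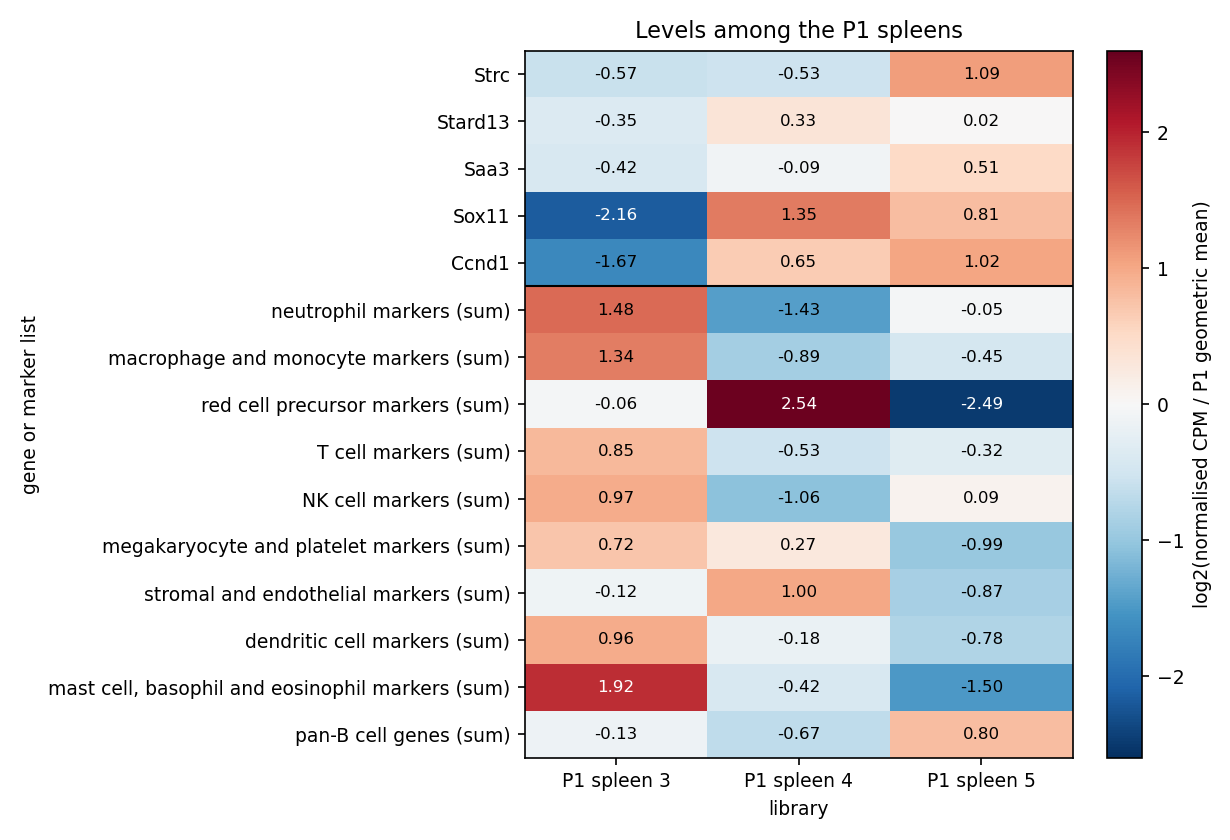
Log2 of the level in each P1 spleen over the geometric mean of the 3 P1 spleens (TMM-normalised CPM), for the 3 genes, Sox11, Ccnd1 and the summed markers of each cell type. Saa3 runs from -0.42 to 0.51 and Stard13 from -0.35 to 0.33, while the neutrophil sum runs from 1.48 in replicate 3 to -1.43 in replicate 4.

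The genes next to the 3 were called about as often as tested genes in general. Within 250 kb lay 59 other genes, of which 27 were tested, 4 were higher and 3 lower in P1, with a median log2 difference of -0.13, against 16.9% higher, 11% lower and a median of 0.02 over all tested genes. All 7 lay near Strc, among 17 tested neighbours there. Near Saa3 0 of 8 tested neighbours were called and near Stard13 0 of 2 (edgeR quasi-likelihood test, Benjamini-Hochberg). At an unadjusted p under 0.05, 1 neighbour of Saa3 and 0 of Stard13 were higher and 0 lower, and DESeq2 called the same numbers. The counts over all 27 moved with single libraries: without WT A, WT B or WT C, taken in turn, 1 neighbour was higher and 1, 1 and 2 were lower, and without P1 replicates 3, 4 and 5 in turn 4, 7 and 2 were higher and 5, 2 and 3 lower.

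Around Strc, the neighbours called higher included Ckmt1, which encodes a mitochondrial creatine kinase and is transcribed toward Strc from the opposite strand, with 3′ ends that overlap by 10 bases. Ckmt1 had 17, 11 and 32 counts in P1 replicates 3, 4 and 5, against 0, 1 and 2 in WT. The log2 difference was 5.04 ± 0.81 (standard error, edgeR adjusted p = 0.00299), and with 3 counts in WT the ratio had a 95% counting interval of 12 to 184. Its counts were 5.03%, 8.53% and 4.05% of those of Strc. Since the counting strand is not given in the sources used here, reads from that overlap cannot be told apart.

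The other called neighbours of Strc did not move one way. Ell3, an elongation factor gene at -51.8 kb (negative distances are upstream), had 2, 2 and 0 counts in P1, against 181, 144 and 148 in WT, and in log2 units fell by 5.85 ± 0.74 (edgeR adjusted p = 0.00116). Map1a, which encodes a microtubule-associated protein and lies 52.9 kb downstream, rose by 2.64 ± 0.66 (edgeR adjusted p = 0.0186). Leaving out WT A, WT B or WT C ended this call (adjusted p = 0.0595 to 0.0922). Wdr76 rose by 1.14 ± 0.33 and Frmd5 by 2.39 ± 0.67 (edgeR adjusted p = 0.0358 and 0.0291), and the splicing factor genes Mfap1a and Mfap1b fell by 1.01 ± 0.32 and 1.2 ± 0.37 (edgeR adjusted p = 0.0487 and 0.0421). Leaving out WT A, WT B, WT C or P1 replicate 5 ended each of these 4 calls, as did leaving out P1 replicate 4 for Mfap1a and Mfap1b, with adjusted p from 0.054 to 0.218 over all alternatives that ended them. Scaling to equal pan-B sums turned Mfap1a and Mfap1b to 1.5 and 1.27.

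Catsper2, the next gene upstream of Strc at -5.46 kb, had 2.06, 2.78 and 2.9 CPM in P1 and 3.21, 2.31 and 3.18 CPM in WT, which overlapped (log2 difference -0.18 ± 0.42, edgeR adjusted p = 0.79). Saal1, 1.32 kb downstream of Saa3, had 24.3, 18.3 and 51 CPM in P1, against 26, 22.1 and 21.2 CPM in WT, which overlapped too (log2 difference 0.44 ± 0.39, edgeR adjusted p = 0.438). Ldha, the lactate dehydrogenase A gene at -126 kb from Saa3, had 277, 193 and 344 CPM in P1, against 134, 160 and 159 CPM in WT (log2 difference 0.85 ± 0.29, edgeR adjusted p = 0.0622). Near Stard13, Pds5b, a cohesin cofactor gene 227 kb downstream, was at -0.23 ± 0.28 (edgeR adjusted p = 0.569), and Kl, the klotho gene 43.7 kb downstream, had 1 count over P1 and 0 over WT.

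**Figure D4:**
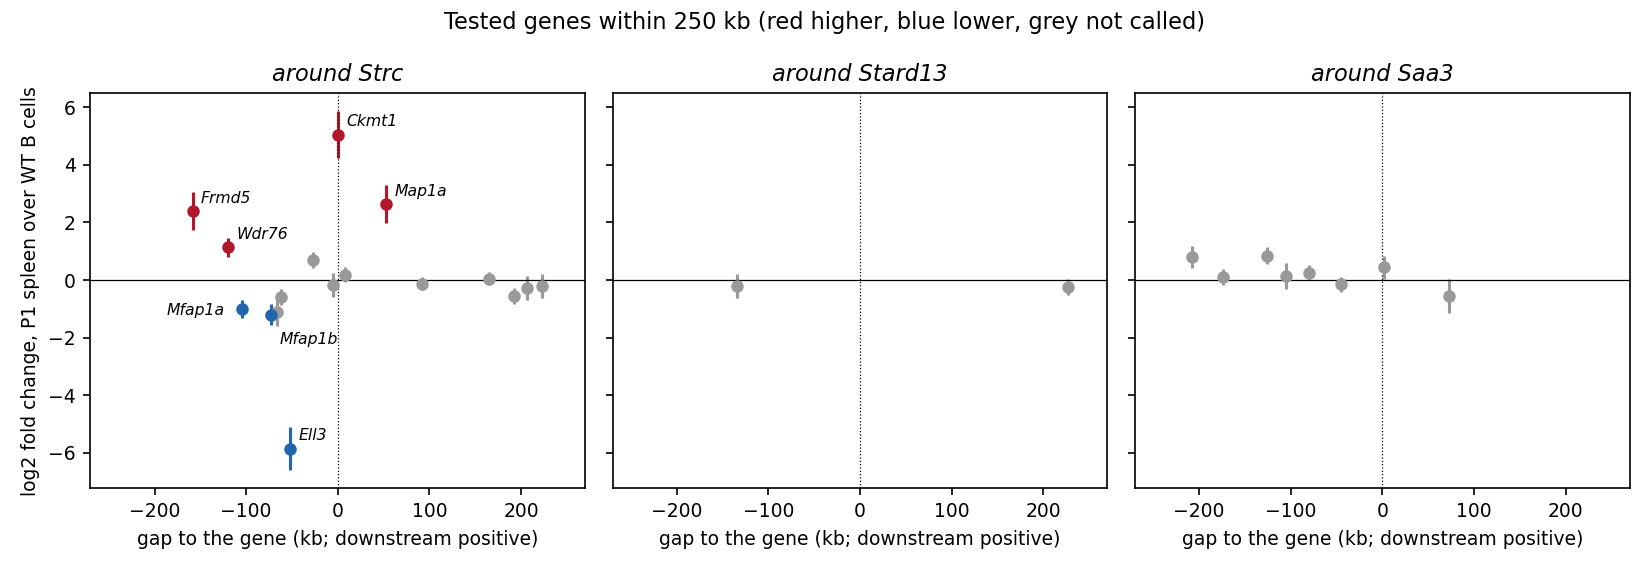
Log2 difference, P1 over WT, of the tested neighbours of Strc, Stard13 and Saa3 against their distance in kilobases from the gene, with positive distances downstream. Called genes are marked, and all 7 of them lie near Strc, from -5.85 for Ell3 to 5.04 for Ckmt1.

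The relatives of Saa3 in its own gene cluster were hardly counted. Saa1 and Saa2 encode the acute-phase serum amyloid A proteins made by the liver, and Saa4 the constitutive form. Saa1 had 2, 0 and 5 counts in P1 replicates 3, 4 and 5, against 0 in WT. Saa4 had 0, 0 and 2 counts in P1, against 0 in WT, and Saa2 had 0 counts in all 6 libraries. None of the 3 passed the filter on low counts. Of the serum amyloid A family, Saa3 alone was therefore well counted. How reads that match more than 1 gene were treated is not given in the sources used here, and serum amyloid A genes share sequence.

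**Figure D5:**
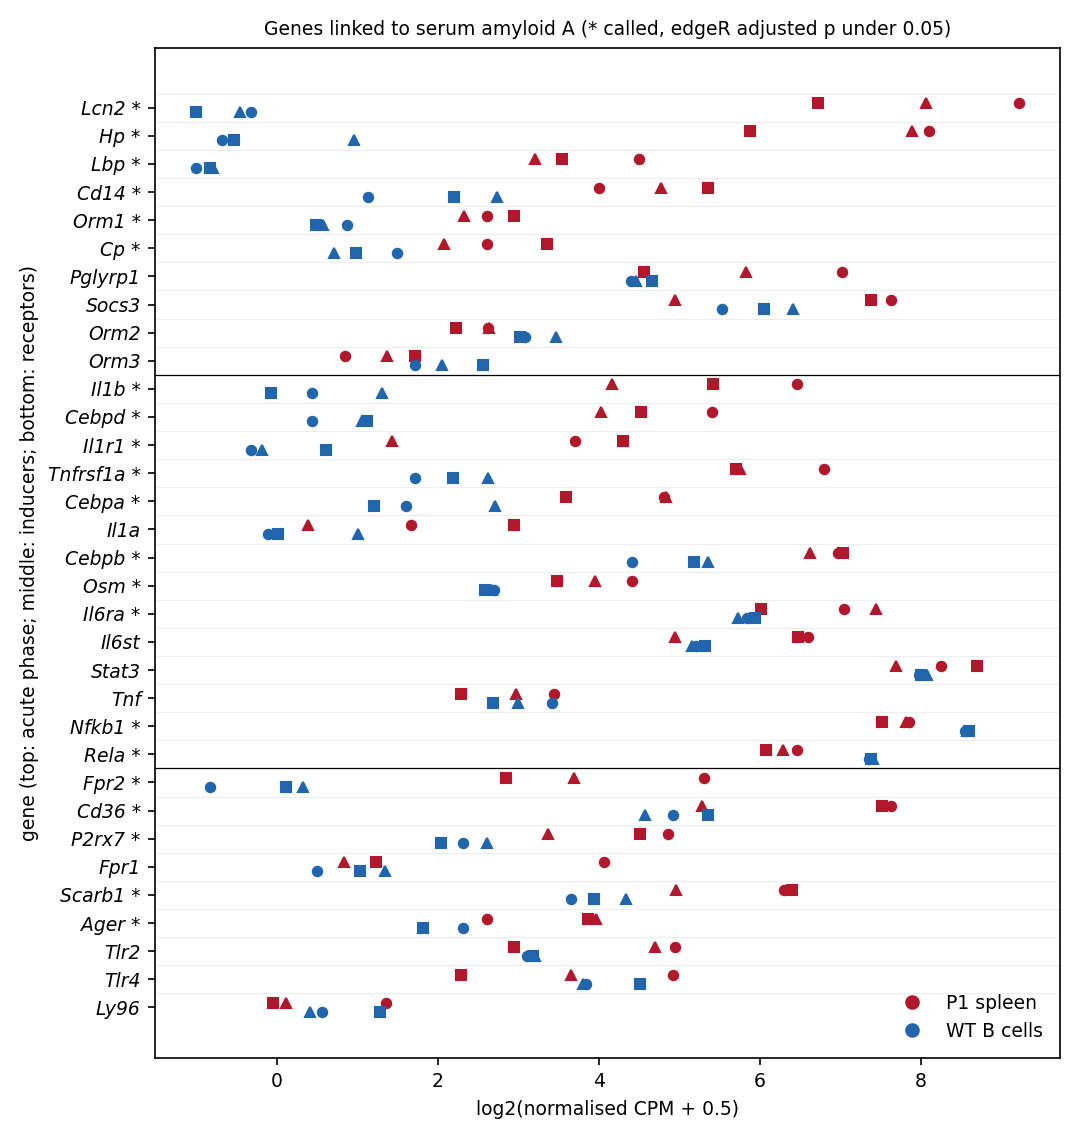
Log2(normalised CPM + 0.5) in each library of the tested acute-phase and innate alarm genes, inducers of serum amyloid A and receptors described for it. P1 spleens and WT B cells are drawn in separate colours, and called genes carry an asterisk. Lcn2 runs from 105 to 593 CPM in P1 and from 0 to 0.303 CPM in WT.

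Of 18 acute-phase and innate alarm genes listed beside Saa3, 10 were tested, 6 were higher and 0 lower in P1, with a median log2 difference of 2.16, against 16.9% higher, 11% lower and a median of 0.02 over all tested genes. The 4 not called were Pglyrp1 at 1.65, Socs3 at 1.01, Orm2 at -0.74 and Orm3 at -0.98 (edgeR adjusted p = 0.0515, 0.246, 0.157 and 0.177), and Hpx, Fgb and Fgg had 0 counts in P1. Lcn2, which encodes the iron-scavenging lipocalin 2 of neutrophil granules, had 593, 105 and 267 CPM in P1 replicates 3, 4 and 5, against 0.303, 0 and 0.227 CPM in WT, and rose by 10.75 ± 1.02 in log2 units (edgeR adjusted p = 0.000579). Hp, which encodes the haemoglobin-binding haptoglobin, had 273, 58.1 and 237 CPM in P1, against 0.121, 0.193 and 1.44 CPM in WT, and rose by 8.39 ± 1.02 (edgeR adjusted p = 0.000989). Both were highest in P1 replicate 3 and lowest in replicate 4, as the neutrophil sum was. Cd14, the lipopolysaccharide co-receptor gene, ran otherwise, with 15.5, 40.5 and 26.8 CPM in P1, against 1.7, 4.11 and 6.12 CPM in WT, and rose by 2.79 ± 0.55 (edgeR adjusted p = 0.00651). Lbp, the lipopolysaccharide-binding protein gene, had 22, 11.1 and 8.7 CPM in P1, with 2 counts over WT and a ratio of 349 (95% counting interval 96.1 to 2896). The call of Cp, also among those higher, ended with library totals and on leaving out P1 replicate 4 or any WT library (edgeR adjusted p = 0.0585 to 0.1195).

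Of 14 tested inducers of serum amyloid A and their receptors and factors, 8 were higher and 2 lower, with a median of 1.64, against 16.9% and 11% of all tested genes. The cytokine gene Il1b had 87.6, 42.4 and 17.4 CPM in P1 replicates 3, 4 and 5, against 0.848, 0.45 and 1.97 CPM in WT, and rose by 5.51 ± 0.76 (edgeR adjusted p = 0.00167). The tumour necrosis factor receptor gene Tnfrsf1a rose by 4.11 ± 0.44 (edgeR adjusted p = 0.000758). The cytokine gene Tnf had 10.3, 4.4 and 7.31 CPM in P1, against 10.2, 5.91 and 7.48 CPM in WT, which overlapped (log2 difference -0.08 ± 0.42, edgeR adjusted p = 0.906), and Il6 had 10, 0 and 1 counts in P1, against 1, 0 and 2 in WT. Genes of C/EBP factors rose, Cebpb by 1.87 ± 0.31 and Cebpd by 4.28 ± 0.5 (edgeR adjusted p = 0.00331 and 0.00091). The NF-kappaB subunit genes Rela and Nfkb1 fell by 1.1 ± 0.23 and 0.84 ± 0.26 (edgeR adjusted p = 0.00908 and 0.041), and scaling to equal pan-B sums turned them to 1.42 and 1.67. The call of Nfkb1 ended with library totals and on leaving out WT A, WT B or WT C (adjusted p = 0.104 to 0.144). Among the genes called higher, Osm lost its call in the same alternatives (edgeR adjusted p = 0.0808 to 0.139). Il6ra lost its call in these and on leaving out P1 replicate 3 or 5 (edgeR adjusted p = 0.0844 to 0.202).

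Receptors described for serum amyloid A were 5 higher and 0 lower of 9 tested, with a median of 2.04, against 16.9% and 11% of all tested genes. Fpr2, a formyl peptide receptor gene of phagocytes, had 39, 6.71 and 12.4 CPM in P1 replicates 3, 4 and 5, against 0.0606, 0.578 and 0.756 CPM in WT, and rose by 5.4 ± 0.93 (edgeR adjusted p = 0.00378). Scarb1, a scavenger receptor gene, rose by 2.04 ± 0.41 and P2rx7, which encodes an ATP-gated channel, by 2.15 ± 0.45 (edgeR adjusted p = 0.00739 and 0.00848), the second lost without WT B (adjusted p = 0.0527). The calls of Cd36 and Ager were less steady: leaving out P1 replicate 3 or 4 or any WT library ended that of Cd36 (adjusted p = 0.0558 to 0.0869), and library totals or leaving out P1 replicate 4 or 5 or any WT library that of Ager (adjusted p = 0.0608 to 0.121). Neutrophil and macrophage markers, given above with their sums, were higher in the same libraries, and their part in these lists was not tested.

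The listed relatives and partners of Stard13 did not move one way. Of the other genes of its family of GTPase-activating proteins, Stard8 had 14.6, 5.79 and 4.06 CPM in P1 replicates 3, 4 and 5, against 1.94, 2.38 and 2.19 CPM in WT (log2 difference 1.92 ± 0.55, edgeR adjusted p = 0.0315). Library totals ended this call, as did leaving out P1 replicate 3, WT A, WT B or WT C (adjusted p = 0.0685 to 0.122). Dlc1 had 4.47, 9.26 and 0.116 CPM in P1, against 1.33, 2.12 and 1.59 CPM in WT, which overlapped (1.41 ± 0.99, edgeR adjusted p = 0.324). Rhob, an immediate-early GTPase gene, had 81, 40.3 and 118 CPM in P1, against 448, 706 and 768 CPM in WT, and fell by 3.01 ± 0.46 (edgeR adjusted p = 0.00239), a call lost on scaling to equal pan-B sums (adjusted p = 0.157). Rhoh, the GTPase gene of blood cells, fell by 1.86 ± 0.26 (edgeR adjusted p = 0.00175) but was at 0.64 on that scaling. Of 10 tested genes of other START domain proteins, 1 was higher and 0 lower, with a median of -0.01, against 16.9% and 11% of all tested genes. The 1 higher, Stard9, a kinesin gene, rose by 2.45 ± 0.37 (edgeR adjusted p = 0.00229).

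The hair bundle genes were called about as often as tested genes in general. Of 26 genes of the stereocilin family and the hair bundle, 8 were tested, 1 was higher and 1 lower, with a median of 0.55, against 16.9% higher, 11% lower and a median of 0.02 over all tested genes. Of the 26, 6 had 0 counts in all 6 libraries, Otog, Otogl and Tectb of the tectorial membrane among them. Otoa, the closest listed relative, had 3, 1 and 3 counts in P1 replicates 3, 4 and 5, against 6, 7 and 4 in WT. Myo7a, an unconventional myosin gene, had 437, 428 and 393 counts in P1, against 780, 579 and 579 in WT, and overlapped between the groups in CPM (log2 difference 0.5 ± 0.38, edgeR adjusted p = 0.357). Tmc1, a gene of the mechanotransduction channel, had 9, 14 and 39 counts in P1, against 1, 3 and 2 in WT, highest in replicate 5 as Strc was, and did not pass the filter. Whrn, the hair bundle scaffold gene whirlin, fell by 4.73 ± 0.37 (edgeR adjusted p = 0.000396), with 2.41, 1.85 and 4.29 CPM in P1, against 89.3, 70.4 and 72.3 CPM in WT. Triobp, an actin-bundling protein gene, rose by 1.32 ± 0.33 (edgeR adjusted p = 0.0199). This call ended with library totals and on leaving out WT A, WT B or WT C (adjusted p = 0.0702 to 0.108).

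The genes with the most similar levels over the 6 libraries, by Euclidean distance of log2(CPM + 0.5), put Strc and Stard13 close to each other and Saa3 with other genes. The 5 nearest to Stard13 were Mapk13 (distance 1.14), Lrg1 (1.3), Crispld2 (1.35), Strc (1.52) and F10 (1.63). The 5 nearest to Strc were a gene on chromosome 12 without a symbol (1.48), Stard13 (1.52), Fam20c (1.65), Lrg1 (1.76) and Crispld2 (1.78). Lrg1 encodes a secreted leucine-rich glycoprotein of the acute phase and neutrophil granules, and F10 coagulation factor X. The distance is set mostly by the step between the groups, which the choice of the 3 genes used, so it is a description of like levels.

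The 5 nearest to Saa3 were Chil3 (2.05), Lcn2 (2.35), Camp (2.37), Cd177 (2.38) and C4b (2.39). Of these, Lcn2, Camp and Cd177 are genes of neutrophils, Chil3 is a gene of neutrophils and macrophages, and C4b encodes complement component C4. Camp is also 1 of the 12 neutrophil markers listed. On the TMM scale Lcn2, Camp and Cd177 had 105, 88.6 and 63.4 CPM in P1 replicate 4, their lowest, and Saa3 had 172 CPM there. Chil3 was also lowest in replicate 4, with 175 CPM, while C4b was highest there, with 253 CPM. With plain library totals Saa3 was itself lowest in replicate 4, with 99.2 CPM. Strc was 32nd and Stard13 48th in distance from Saa3. Of the 5 genes nearest to Strc, the one without a symbol, Fam20c and Crispld2 were highest in P1 replicate 5, as Strc was. They had 93.4, 84 and 34.6 CPM there, against 12.6, 16.9 and 19 CPM in replicate 3. Stard13 and Lrg1 were highest in replicate 4.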

How the data were processed

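RNA from 3 P1 recipient spleens and 3 samples of B cells selected from WT spleens was sequenced. From each sample 50 ng of total RNA went, per the labels' protocols, into NEBNext Ultra Directional libraries. The authors' deposited values are raw counts per gene, in 1 table. Per the submitters' processing notes, Trim Galore, HISAT2 and featureCounts were used, with GRCm39. Their versions, their options and the strand setting are not given in the sources used here. Which WT mouse each WT column came from is unknown, so these are named A, B and C in column order.

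Symbols were matched by Ensembl ID for 51948 of 56884 genes (91.3%). Counts were filtered with filterByExpr by group, scaled by TMM and compared between groups by the robust quasi-likelihood F-test of edgeR 4.0.16 (in R 4.3.3), without covariates, with Benjamini-Hochberg adjustment over 15462 genes at 0.05. The test was also run on simulated counts, with its outcome not reported here. Few genes were changed there, in either direction and without a shift of cell composition, which is unlike these data. Normalised CPM use TMM-adjusted totals, and CPM per kilobase the exon length of the table. Ratios against 1 to 3 counts carry an exact 95% interval, and those against 0 counts use a floor of 3 counts over the group.

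The 3 genes and the lists (21, with 219 of 220 entries matched) were chosen with earlier results of these data known. Named are the 3 genes, Sox11 and Ccnd1, members of the lists, neighbours within 250 kb with at least 10 counts, the 5 genes nearest in level, and the head of the order by P1 total. Kl, Gzmk, the lines at 100 and 300 P1 counts and the pancreatic list were chosen after their values were seen. Alternatives were other size factors, library totals, equal pan-B sums, no filter, DESeq2 1.42.0 and leaving out each library in turn. Some results of the lists are not reported here.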

Additional observations from a re-analysis of the deposited data

How the results depend on the processing

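Equal pan-B sums in all libraries shifted the median log2 difference over all genes from 0.02 to 2.53 and the counts with it: 13115 genes were then higher and 132 lower in P1, 25 neighbours higher and 1 lower, 64 related genes higher and 1 lower, and 73 non-B cell markers higher and 0 lower. The mean P1 levels on that scale were 102.5 CPM for Strc, 88.6 CPM for Stard13 and 446 CPM for Saa3. It reversed Mfap1b (1.27), Mfap1a (1.5), Nfkb1 (1.67), Rela (1.42) and Rhoh (0.64), all below the shift of 2.53. With library totals, which moved the median to -0.24, 1 neighbour was lower. Leaving out 1 library at a time gave 1644 to 3206 genes higher and 815 to 2313 lower, 1 to 7 neighbours higher and 1 to 5 lower, 15 to 29 related genes higher and 4 to 8 lower, and 42 to 49 non-B cell markers higher and 1 to 3 lower. The mean P1 levels were then 29.5 to 60.8 CPM for Strc, 29.9 to 37.7 CPM for Stard13 and 155 to 216 CPM for Saa3. DESeq2 called 3694 genes higher and 2184 lower, and the counts with no filter were 3234 and 1912. For the 34 neighbours and related genes called in the main fit, each under 11 alternatives, 302 results kept direction and side of the threshold, 67 lost the call and 5 reversed. Genes without a call in the main fit are not among these results, so gained calls were not counted here. The causes were not tested.

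No paired analysis was possible because the labels give no pairing of WT and P1 mice and the WT column names do not show which mouse each is. The column names of WT A and WT B share a tag that WT C lacks, and its meaning is not given. With 3 libraries per group, small changes of neighbours are hard to call, and 0 counts in a WT library have exact 95% upper limits of 0.224 to 0.279 CPM.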
